A study of Mus musculus with 26 samples.

Results

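Most places where the transcription factor Egr1 was found in regenerating mouse liver lay away from gene starts, and most of those were shared with the C/EBP factors. The Egr1 list of 36 h held 9895 peaks. Of these, 9446 had the centre more than 1 kb from every gene start used. Of the 9446, 5656 overlapped by at least 1 bp a region of C/EBPalpha or C/EBPbeta in any of 16 lists. These 5656 peaks, 59.9% of the distal ones (exact 95% binomial interval 58.9 to 60.9%, counting error only), are described here as shared distal peaks. Egr1 was mapped at 36 h only, and the C/EBP lists of 36 h, of either factor, met 4458 of the 9446. Another 3790 distal peaks met no C/EBP list, and 449 peaks lay at gene starts. The peaks were chosen by their measured positions, that is by the overlap with C/EBP regions and the distance to gene starts, so values of these are a description without a test.

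Egr1 is a zinc finger factor that is switched on within minutes by growth signals and binds GC-rich DNA. C/EBPalpha and C/EBPbeta are leucine zipper factors that bind the same DNA sequences. In liver, C/EBPalpha is known for keeping hepatocytes differentiated and out of the cell cycle, and C/EBPbeta for the acute phase response and for regeneration. Distal sites where several factors bind together are often enhancers, which can act on genes far away, so the gene with the nearest start is only a neighbour and not a known target.

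All samples came from C57BL6/J male mice of 7 weeks, with no allele or agent named in the labels. Partial hepatectomy removed 3 of 5 liver lobes, and the tissue taken out served as 0 h. Livers followed at 3, 8, 16, 24, 36, 48 and 168 h, with 5 mice per time point, and whether these were pooled is not stated in the labels. Chromatin immunoprecipitation with sequencing covered Egr1 at 36 h, and both C/EBP factors and the transcribing polymerase, Pol II, at all 8 times. Each antibody and time had 1 library, so nothing has a replicate. Whole liver was used, and in such bulk tissue fewer cells of a type and less signal per cell cannot be told apart. A mock library of 0 h was not analysed here.

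The tissue was checked with Pol II over marker genes, in signal units per bp of gene body after rescaling between libraries. The 6 hepatocyte markers had 2.75 to 249 at 36 h. Markers of stellate cells, cholangiocytes, lymphocytes and neutrophils reached at most 0.22, and 19 of these 22 genes were at or below 0. Kupffer cell markers reached 0.73 and endothelial markers 2.54. All 6 hepatocyte markers neighboured a shared distal peak, as did 2 of 7 endothelial markers (Pecam1 and Stab2). None of the 29 markers of the other 5 cell types did. Of all measured genes 17.2% did, and no marker count was tested against that share.

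Sequences of the peaks themselves were not read, since no genome of the build of the files (mm9) was used here. Promoters are shown instead for 3 named neighbours that also had an Egr1 peak at the start, those of highest start peak score with an entry in the table, because there shared distal peaks and a start peak have the same nearest gene. They are from RefSeq on GRCm38.p6, cover 250 bases before to 50 after the start, and run 5′ to 3′ on the strand of the gene. Capitals mark a match to the C/EBP motif TTGCNNAA.
Serpina1a, chr12:103863570-103863869, minus strand: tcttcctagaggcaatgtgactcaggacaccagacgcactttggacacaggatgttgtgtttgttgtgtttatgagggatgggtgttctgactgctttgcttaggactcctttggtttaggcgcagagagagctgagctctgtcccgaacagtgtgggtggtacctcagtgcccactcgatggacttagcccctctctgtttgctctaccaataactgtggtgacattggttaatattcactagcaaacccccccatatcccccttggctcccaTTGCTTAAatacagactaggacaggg
Cyp3a11, chr5:145879805-145880104, minus strand: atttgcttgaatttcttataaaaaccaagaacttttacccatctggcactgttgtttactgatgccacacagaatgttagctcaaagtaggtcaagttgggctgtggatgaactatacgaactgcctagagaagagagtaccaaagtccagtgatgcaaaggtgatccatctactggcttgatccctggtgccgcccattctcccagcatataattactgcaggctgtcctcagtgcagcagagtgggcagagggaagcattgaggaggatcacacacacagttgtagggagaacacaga
Fggy, chr4:95557257-95557556, plus strand: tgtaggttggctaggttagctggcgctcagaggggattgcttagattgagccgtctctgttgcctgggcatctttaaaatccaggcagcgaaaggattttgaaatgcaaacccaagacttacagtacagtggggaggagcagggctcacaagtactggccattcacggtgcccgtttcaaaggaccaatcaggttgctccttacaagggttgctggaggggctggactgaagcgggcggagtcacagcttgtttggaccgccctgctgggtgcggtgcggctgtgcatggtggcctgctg
Serpina1a encodes the protease inhibitor alpha-1-antitrypsin. Its start peak scored 431 and met 0 of 16 C/EBP lists, while the promoter holds TTGCNNAA at bases 275 to 282 of the 300. Cyp3a11, a drug-metabolizing cytochrome P450, had a start peak scoring 595 that met 7 lists. Fggy, a carbohydrate kinase gene, had one scoring 131 that met 8 lists. Both of these promoters lack all 4 motifs searched. Serpina1 and Cyp3a genes have near-identical copies, so reads may be shared among them.

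Searched on both strands, the Egr1 motif GCGGGGGCG was in 141 of 2835 promoters of neighbours of shared distal peaks (4.97%) and in 955 of all 32851 promoters (2.91%). The variant GCGTGGGCG was in 0.670% and 0.612%. TTGCNNAA was in 10.4% and 10.8%, and its symmetric case TTGCGCAA, which those counts include, in 0.176% and 0.183%. Promoters were found for 2171 of 3592 neighbours. The full set covers 27025 symbols, while neighbours come only from the 20933 measured genes. Promoters of measured genes alone were not counted, so the sets are unlike and the shares were not tested. A match is a stretch of letters and not a site.

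C/EBP regions were present at most shared distal peaks at nearly every time. Of the 5656 peaks, 2329 (41.2%) met all 16 C/EBP lists and 3574 (63.2%) met at least 12. Each number of lists from 2 to 15 held 153 to 453 peaks. Another 347 (6.14%) met 1 list alone, and for 122 of those (35.2%) it was the C/EBPbeta list of 0 h, the longest list with 54574 regions. Both factors met 5196 peaks (91.9%), C/EBPalpha alone 132 and C/EBPbeta alone 328. Of the 302 gene-start peaks with a C/EBP region, 114 (37.7%) met all 16 lists.

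The nearest C/EBP region of any list lay near the middle of most shared distal peaks. From the peak centre to the nearest C/EBP region centre the median was 23 bp, and 4398 peaks (77.8%) had one within 100 bp. The window of 100 bp to either side is 19.9% of the median peak width of 1003 bp. That width share is for 1 centre, while the nearest was taken over all 16 lists, so it is no background for the 77.8%. For single lists cut to their 20061 top-scoring regions, 23.2% of distal Egr1 peaks on average had a C/EBPalpha centre within 100 bp. On average 38.1% overlapped a region of such a list. For C/EBPbeta it was 22.2% and 36.7%. Peaks in all 16 lists had a median of 14 bp and 81.8% within 100 bp. Peaks in 1 list had a median of 129 bp and 40.9%. Peaks met by more lists have more C/EBP centres to take the nearest from, so a shorter distance there is partly built in. Joining centres within 100 bp of the next into sites, 4012 peaks (70.9%) held 1 C/EBP site and 446 held 3 or more.

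**Figure D1:**
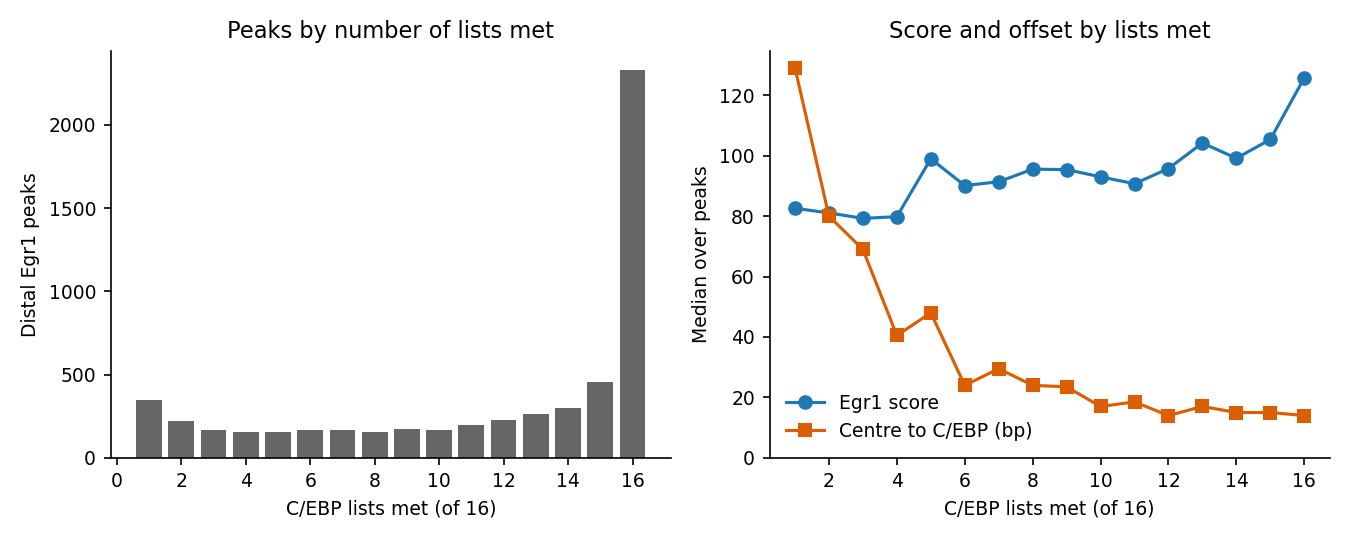
Left, shared distal Egr1 peaks (count) by the number of C/EBP lists met, from 1 to 16. Right, median Egr1 score and median distance from the peak centre to the nearest C/EBP region of any list (bp) for the same peaks. Peaks in more lists have more C/EBP regions to take the nearest from. The 16-list bar holds 2329 peaks, with a median score of 126 and a median distance of 14 bp.

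The Egr1 score, which the peak caller gave each peak, was higher where more lists were met. Its median was 82.6 for peaks in 1 list and 126 for peaks in all 16. The median width differed as well, 935 bp and 1050 bp, and wider peaks have more room to meet a list. Width was not held fixed. The median score was 105 for all shared distal peaks, 99.5 for distal peaks with no C/EBP region and 108 at gene starts. The highest scores ran the other way. Of distal peaks scoring 100 to under 200, 64.8% had a C/EBP region (exact 95% interval 62.9 to 66.6%). From 500 to under 1000 it was 53.4% (48.6 to 58.1%) and from 1000 to under 3200 it was 22.1% (17.1 to 27.9%). The score of 3100 was held by 5 shared distal peaks and by 31 distal peaks without a C/EBP region.

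**Figure D2:**
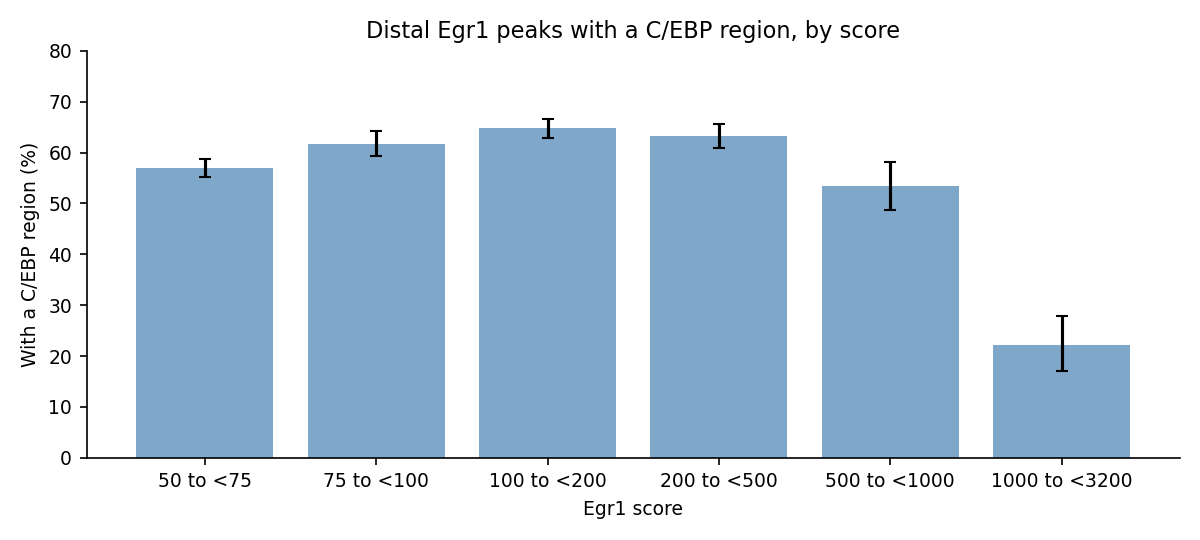
Share of distal Egr1 peaks with a C/EBP region (%) by Egr1 score, bars starting at 0, with exact 95% binomial intervals that cover counting error only. The share is 57.0% to 64.8% in the bands from 50 to under 500, 53.4% in the next and 22.1% at the highest scores.

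Chromosome X stood apart. Here 46 of its 492 distal Egr1 peaks (9.35%) had a C/EBP region, against 62.9% on the autosomes, which ranged from 51.5% on chromosome 4 to 72.4% on chromosome 9. Chromosome Y had 3 of 46. Chromosome X held 5.16% of all Egr1 peaks and 1.01% to 1.54% of the regions of a C/EBP list. Distal peaks of at least 2000 bp also differed in number, with 154 shared peaks (2.72%) and 327 (8.63%) of those without a C/EBP region.

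Shared distal peaks lay nearer to genes than other distal peaks. Their median distance to the nearest start was 30328 bp, against 35759 bp for distal peaks without a C/EBP region, and 36.7% against 24.4% had the centre inside a measured gene. Another shared distal peak lay within 10 kb of 1199 of them (21.2%). At the limit of 1 kb, the 3 peaks just outside lay 1012, 1016 and 1020 bp from the starts of Lrrfip2, Saps2 and 0610008F07Rik, with scores of 51.5, 105 and 66.5 and 10, 7 and 16 lists. The 3 just inside, which are not counted, lay 992, 994 and 997 bp from Cyp2c50, Ugcgl2 and Dusp16, with scores of 131, 95.2 and 119 and 8, 12 and 16 lists.

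The C/EBP factors were compared by the share of all distal Egr1 peaks that each list met, with every list cut to its 20061 top-scoring regions. C/EBPalpha met 40.9, 39.2, 37.8, 37.9, 40.6, 37.3, 34.1 and 37.1% from 0 to 168 h. C/EBPbeta met 37.8, 28.8, 40.5, 38.4, 40.1, 34.5, 35.9 and 37.8%. The values overlap, and the lowest is C/EBPbeta at 3 h. The mean was 38.1% for C/EBPalpha and 36.7% for C/EBPbeta, a difference of -1.39 percentage points with C/EBPbeta higher at 4 of 8 times. All distal Egr1 peaks were taken here, which distance to gene starts alone chose. No test is given, since the rule for shared distal peaks used overlap with these same lists. Without the 3 h pair the difference was -0.0892. With full lists the sign turned, to 0.823 points.

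**Figure D3:**
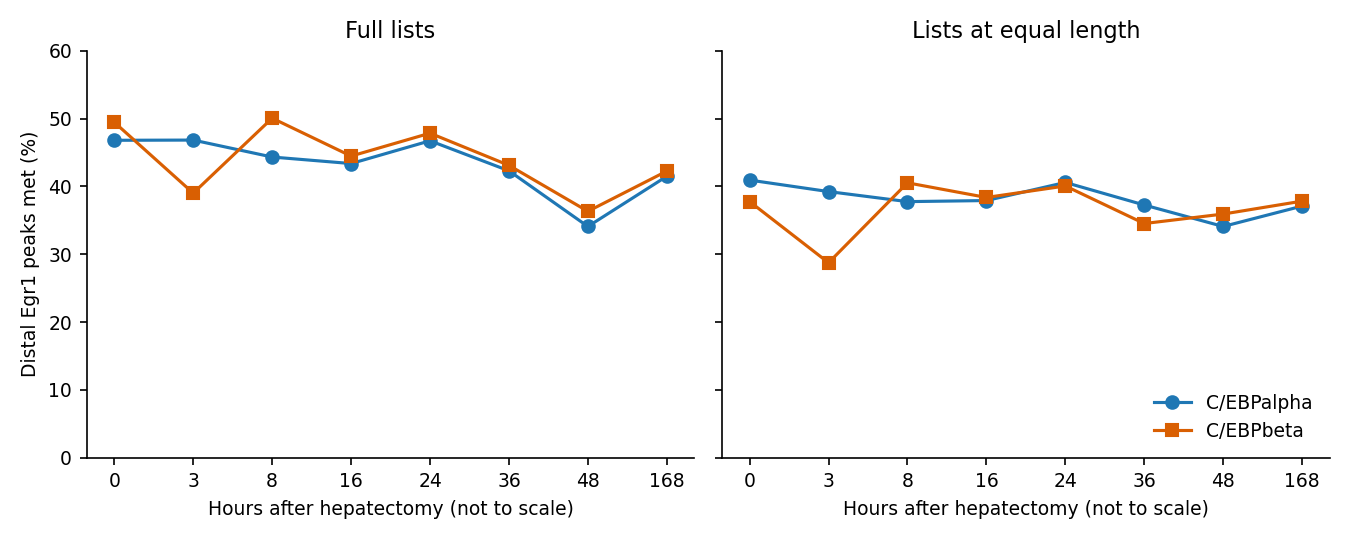
Share of the 9446 distal Egr1 peaks met by each C/EBP list (%), by hours after hepatectomy, with full lists on the left and lists of 20061 regions on the right; each point is 1 library. At equal length the points lie between 28.8%, for C/EBPbeta at 3 h, and 40.9%, for C/EBPalpha at 0 h.

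A larger share of strong than of weak C/EBP regions lay in shared distal peaks. Of the top-scoring 10% of a C/EBP list, 21.8% (C/EBPbeta at 3 h) to 44.3% (C/EBPalpha at 24 h) lay in these peaks. Of the lower-scoring 50% it was 3.55% to 11.5%. Of the 7063 C/EBP sites found in all 16 lists, 28.0% lay in a shared distal peak, against 2.86% of 57472 sites in 1 list. The Egr1 tissue was of 36 h, and at that time 4458 shared distal peaks (78.8%) met a list of either factor and 3610 (63.8%) lists of both. At 0 h 4976 (88.0%) met a list of either, from longer lists. With all lists at 20061 regions it was 3862 (68.3%) at 36 h and 4214 (74.5%) at 0 h.

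The shared distal peaks of highest Egr1 score were mostly not those met by every list. At the score of 3100 were 5 peaks, which neighboured the cell death kinase gene Dapk1, D030013I16Rik, Cdc123, the histone methyltransferase gene Ezh2 and 3110007F17Rik. They met 9, 12, 10, 2 and 1 lists, and the Ezh2 peak was 36722 bp wide, 73793 bp from the start. The D030013I16Rik peak was 6228 bp wide, and whether such wide peaks come from read mapping was not tested. The next were near RP23-459P8.3, the calcium channel subunit gene Cacng1, Prtg, Txndc11 and the homeobox gene Nkx2-6, with scores from 2614 down to 2086, and met 1, 10, 16, 1 and 1 lists. Of these 10, the peak near Prtg was in all 16 lists.

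Among peaks in all 16 lists, the 10 of highest score had a score of 1255 to 2149, a width of 823 to 1276 bp and 1 C/EBP site each. Their neighbours included Prtg, Cpn2, which encodes a carboxypeptidase N subunit, AC134918.5-1, Ttc39c, Lrrc40, the amino acid transporter gene Slc38a4, Fggy, 5830433M19Rik and Ripk4. The peak in Slc38a4 at chr15:96866028-96867124 had its centre at 0 bp from a C/EBP region. Within a peak, the top-scoring C/EBP region of each list was taken. In the peak in Lrrc40 it scored above 92.1% to 99.99% of regions in the 8 C/EBPalpha lists (median 98.9%). In the Prtg peak, at chr9:72614004-72615279, it scored above 27.9% to 89.8% (median 81.5%). Pol II at 36 h was 5.87 over Slc38a4, 4.11 over Cpn2 and 13.3 over Ttc39c, and 0.06 or below over Prtg, AC134918.5-1, Lrrc40, Fggy, 5830433M19Rik and Ripk4.

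Pol II marks genes that are loaded with the transcribing enzyme. The 5656 peaks had 3592 distinct neighbours, 17.2% of the 20933 measured genes. Of these, 1177 (32.8%) passed the filter on low values, above 0.5 units per bp in at least 2 of 8 libraries, against 22.7% of all measured genes and 15.1% of the 1597 genes next to only distal peaks without a C/EBP region. It was 29.2% for neighbours of 1 shared distal peak, 37.6% for 2 or 3, and 51.2% for the 211 genes with at least 4. It was 38.7% for neighbours within 50 kb and 14.2% beyond. Neighbours that failed the filter are not counted below. Of the neighbours, 155 (4.32%) also had an Egr1 peak at the start, against 2.13% of measured genes.

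A trend of Pol II over the 8 times was tested with limma across 4761 genes. Of these 1 passed an adjusted p of 0.05 (0.0210%), and 0 of 1177 neighbours did. The smallest adjusted p of a neighbour was 0.458 by limma. At an unadjusted p under 0.05 there were 91 neighbours (7.73%) and 458 of all genes (9.62%). The order of these shares turned when the 0 h or the 168 h library was left out. So the changes below are values of single libraries against the 0 h library, with no replicate check and no p-value.

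At 36 h, the time of the Egr1 sample, neighbours as a whole were like all genes. On the log2 scale of signal per bp plus 0.5, 189 of 1177 (16.1%) were higher than at 0 h by at least 1 and 126 (10.7%) lower, against 16.5% and 11.1% of all genes tested. The median change was 0.10, and 0.12 for all genes. At 3 h 25.4% were lower, against 21.4%, and the median was -0.23 against -0.08. At 24 h 23.2% were higher, against 18.4%, and at 168 h 23.5% against 17.7%. The medians at those times were 0.30 and 0.41, and 0.07 and 0.00 for all genes. Neighbours of only distal peaks without a C/EBP region, 241 tested, had -0.21, 0.18 and 0.18 at 3, 24 and 168 h. Rescaling moved the 168 h changes by 0.97 and the 24 h changes by 0.41. All times share the 0 h library.

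Some genes had many shared distal peaks. Trib1, which encodes a pseudokinase that promotes the breakdown of C/EBPalpha, had 11, the most of any gene, spread from 4689 to 138016 bp from its start, and 7 met all 16 lists. In the one at chr15:59483667-59486129 the top C/EBP region per list scored above 96.9% to 99.9% of regions in the 8 C/EBPalpha lists. The one at chr15:59548054-59549220 had the highest Egr1 score, 901. Pol II over Trib1 was 17.1, 28.9, 13.4, 7.06, 8.67, 8.79, 9.67 and 10.2 units per bp from 0 to 168 h. It was highest at 3 h, and every library from 8 h on lay below 0 h.

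AC133090.4 had 10 such peaks, and 9 each neighboured Hnf4g, Narg2, the glucocorticoid receptor gene Nr3c1 and Pik3r1, which encodes the regulatory subunit of a phosphoinositide kinase. The 9 near Hnf4g lay 607425 to 633843 bp away, side by side from chr3:2999871 to 3027465, and none met all 16 lists. Whether such a dense group comes from read mapping was not tested. Pol II over Pik3r1 at 0, 3, 36 and 168 h was 0.28, 1.88, 0.48 and 1.21, with every later library above 0 h. Among the genes with 8 each were AC156506.4-1, the forkhead gene Foxq1, Nudt7, a peroxisomal coenzyme A hydrolase gene, and Rreb1. Pol II over Foxq1 was 7.23, 15.02, 2.25, 1.59, -0.52, -0.05, 10.7 and -8.00 from 0 to 168 h, high at 0, 3 and 48 h and below 0 in 3 other libraries. Over Nudt7 it lay between 2.01 at 16 h and 19.4 at 24 h.

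Acute phase genes encode plasma proteins that the liver secretes in inflammation. Of 25 measured genes of this list, 16 (64.0%) neighboured a shared distal peak and 9 did not, beside 17.2% of all measured genes. They had 26 such peaks, and 12 genes had one in all 16 lists. At 36 h 12 of the 14 tested were higher than at 0 h by at least 1 and 0 were lower, with a median of 1.93. Of all genes tested 16.5% were higher and 11.1% lower, with a median of 0.12, and these shares are the background of the list counts that follow. Of the other two, Saa3 was below 0 at both times and Orm3 had 1.25 at 0 h and 1.42 at 36 h. Over all 25 measured genes of the list, neighbours and others together, the median Pol II was 1.53 units per bp at 0 h and 14.2 at 36 h. The list was chosen with these results known, and its response at 3 h is part of what was known.

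Serum amyloid A gene Saa1 had 2 such peaks, 1805 and 3301 bp from its start, both in all 16 lists. Its Pol II was -0.93, 212, 81.1, 9.66, 5.25, 25.6, 37.2 and 14.3 units per bp from 0 to 168 h. It lay below 0 at 0 h and above 5 in every later library, and was highest at 3 h. Saa genes are close copies, so their values are uncertain. Orm1, of the plasma protein orosomucoid, had 3 peaks and Pol II of 2.43, 138, 56.2, 25.4, 13.0, 19.4, 28.2 and 14.3, with every later library above 0 h. In its peak at chr4:62999340-63000530 the top C/EBP region per list scored above 91.7% to 99.1% of regions in the 8 C/EBPalpha lists. Orm1, Orm2 and Orm3 are close copies as well.

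Haptoglobin gene Hp, whose product binds free haemoglobin, had 1 peak 6209 bp from its start, in all 16 lists. Its Pol II was 34.1, 694, 226, 165, 92.4, 93.0, 197 and 52.8 from 0 to 168 h, highest at 3 h and lowest at 0 h. The fibrinogen genes Fgg, Fga and Fgb, for the clotting protein, had 2, 1 and 1 peaks, all in 16 lists, and Pol II at 0, 3 and 36 h of 9.28, 126 and 33.8 for Fgg, 8.59, 106 and 39.1 for Fga and 10.2, 101.1 and 32.8 for Fgb. Itih3, of the hyaluronan-binding inhibitor complex, had 1 peak at 15941 bp and Pol II of 1.07, 39.0 and 12.3 at the same times. Of these 5 genes all but Fga, highest at 48 h with 113, were highest at 3 h, and all 5 were above 0 h at 36 h.

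**Figure D4:**
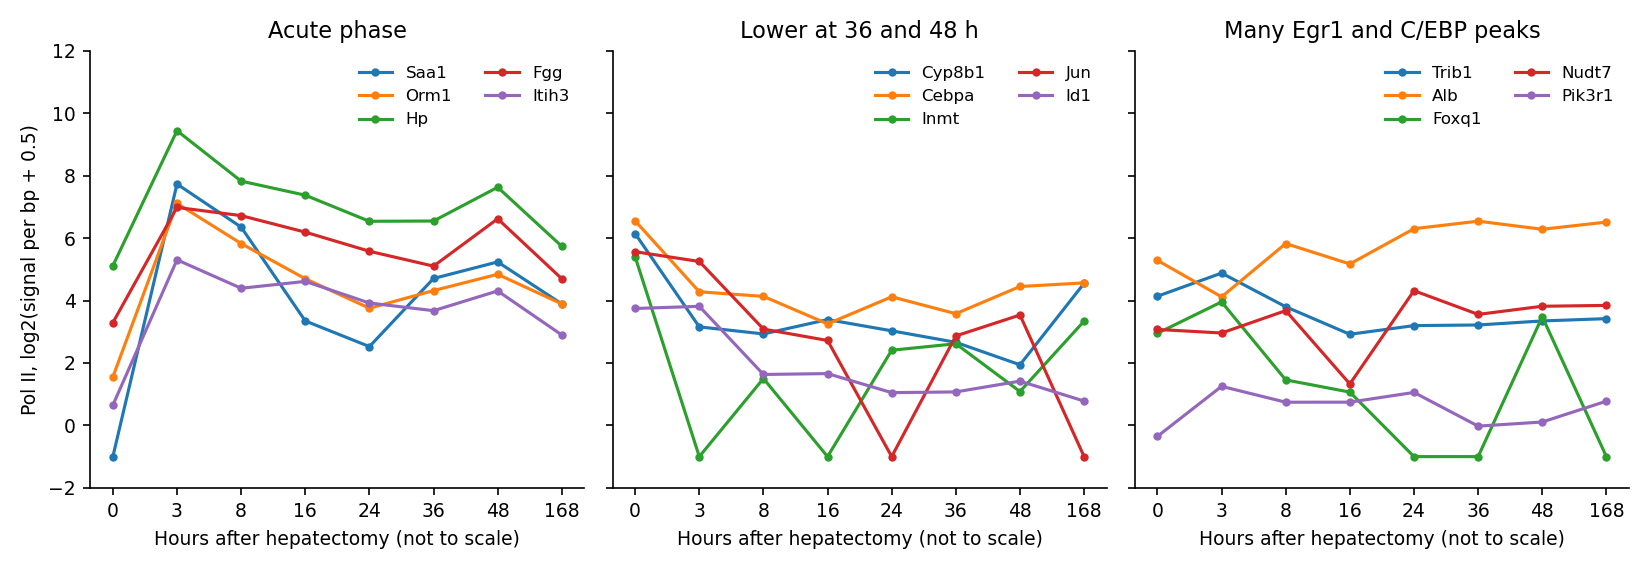
Pol II over neighbours of shared distal peaks, as log2 of signal units per bp plus 0.5 with values below 0 set to 0, by hours after hepatectomy; each point is 1 library. Acute phase genes are lowest at 0 h, the genes in the middle are lower at 36 and 48 h than at 0 h, and those on the right, with many peaks, follow no common course.

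The other neighbours highest at 36 h against 0 h, and at least 1 higher at 48 h too, included Nnmt, which encodes nicotinamide N-methyltransferase. At 0, 3, 36 and 48 h its Pol II was -0.13, 11.6, 5.78 and 4.91. In its peak 1438 bp away the top C/EBP region per list scored above 94.2% to 99.8% of regions in the 8 C/EBPalpha lists. Hspa8, a heat shock chaperone gene, had 1.76, 7.19, 8.17, 4.83, 13.8, 15.5, 10.5 and 9.10, with every later library above 0 h. Values at 0 and 36 h were -0.04 and 3.26 for the transglutaminase gene Tgm2, -0.64 and 3.20 for Gpr151, and 0.17 and 5.42 for 2200001I15Rik. The histone genes Hist1h2ai and Hist1h3d were at 0.07 and -1.44 at 0 h and at 10.3 and 4.77 at 36 h. Histone genes lie in a dense cluster of close copies, so these values are uncertain.

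Of the neighbours lower than at 0 h by at least 1 at both 36 and 48 h, Cyp8b1, a bile acid hydroxylase gene, had the largest difference at 36 h. It had 2 peaks at 7341 and 9003 bp and Pol II of 70.1, 8.41, 7.12, 9.98, 7.66, 5.82, 3.34 and 23.0 from 0 to 168 h. Cebpa, which encodes C/EBPalpha itself, had 1 peak 11336 bp past its start, at chr7:35914725-35916592, in all 16 lists. Its Pol II was 93.2, 18.9, 17.0, 9.02, 16.9, 11.4, 21.3 and 23.2, with 0 h above every later library. Of 6 measured C/EBP family genes, Cebpa was the 1 (16.7%) that neighboured a shared distal peak, beside 17.2% of all measured genes.

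Jun, an AP-1 subunit gene of the early response to growth signals, had 2 peaks 89320 and 161004 bp away and Pol II of 46.8, 37.6, 7.99, 6.09, -0.57, 6.79, 11.1 and -3.16. Id1, an inhibitor of helix-loop-helix factors, had 12.9, 13.6, 2.60, 2.66, 1.57, 1.60, 2.17 and 1.22. In both the 0 and 3 h libraries lay above all later ones. Inmt, an amine methyltransferase gene, had another course, with 41.7, -0.79 and 5.63 at 0, 3 and 36 h. Fzd8, a Wnt receptor gene, Rnf133, Zfp36l2, an RNA decay factor gene, G430095P16Rik and Ppp1r3c, a glycogen-targeting phosphatase subunit gene, were at 3.93 to 9.78 at 0 h and at 0.84 or below at 36 h. The peaks of Fzd8 lay 272752 to 446246 bp away.

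The 10 neighbours with the most Pol II at 36 h held genes of secreted liver proteins and others. The apolipoprotein genes Apoa1 and Apoa5 had 249 and 112 units per bp, Tat, a tyrosine-degrading enzyme gene, 99.3, Hist1h1c 93.1, Hp 93.0 and the albumin gene Alb 92.6. Zfp36, which promotes the decay of inflammatory messenger RNA, had 65.0, Errfi1, a feedback inhibitor of the EGF receptor, 59.9, Id3 59.7 and the fetuin gene Ahsg 59.3. Alb had 7 shared distal peaks, 4 in all 16 lists. The one over its gene body, chr5:90889301-90900166, was 10866 bp wide with a score of 74.0. Pol II over Alb was 38.5, 16.9, 56.2, 35.5, 78.3, 92.6, 77.3 and 90.8, lowest at 3 h.

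A larger share of neighbours had strong Pol II where peaks were wide, though most did not. Of 141 neighbours of shared distal peaks at least 2000 bp wide, 31 (22.0%) had over 5 units per bp at 36 h, against 4.17% of 3523 neighbours of narrower ones. The filter was passed by 56.0% and 32.4%, and the median at 36 h was 0.45 and 0.02. The 5 widest peaks neighboured Ezh2, Fcgr3, B230396O12Rik, 3110007F17Rik and Mefv, with 0.26, -0.31, -0.33, 0.00 and -0.14 units per bp at 36 h.

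Egr1 is itself known to be controlled by its own family and corepressors. Of the 18 listed genes of this kind, textbook Egr1 targets included, 7 (38.9%) neighboured a shared distal peak, beside 17.2% of all measured genes. Egr1 had 2, 4354 and 6697 bp from its start, of which 1 met all 16 lists. Pol II over Egr1 was 19.6, 43.4, 12.7, 5.67, 3.32, 7.91, 13.4 and 5.24, highest at 3 h, and at 36 h below 0 h. Egr3, the tissue factor gene F3 and the growth factor gene Vegfa had 1 peak each in all 16 lists, and Pol II at 36 h of -2.77, -0.21 and 6.90. Of the 3 tested, 0 were higher at 36 h by at least 1 and 2 were lower, beside 16.5% and 11.1% of all genes tested.

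Among liver transcription factor genes, 15 of 22 (68.2%) neighboured a shared distal peak, beside 17.2% of all measured genes, and the 54 peaks were the most of any list. All 15 had a peak in all 16 lists. Nfia, a nuclear factor I gene, had 7 peaks, all in 16 lists, and Nfib also had 7, with 4. At 36 h 0 of 14 tested were higher by at least 1 and 1 was lower, with a median of -0.16. The pioneer factor gene Foxa2 had 5.43 and 3.00 at 0 and 36 h. Nr5a2, a nuclear receptor gene of bile acid synthesis, was at 0.54 at both times.

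Immediate early genes, which respond early to growth signals, had 14 of 25 (56.0%) as neighbours with 30 peaks, beside 17.2% of all measured genes. At 36 h 3 of 12 tested were higher and 6 lower, with a median of -0.86, beside 16.5% higher, 11.1% lower and a median of 0.12 for all genes tested. Gadd45g, a stress response gene, had 5 peaks 51229 to 337183 bp away and Pol II of 9.22, 701, 173, 99.0, 74.8, 53.7, 133 and 3.81. Dusp6, a MAP kinase phosphatase gene, had 4 peaks and 9.62 at 0 h, 2.68 at 36 h. Zfp36, with 1 peak 3867 bp away, had 166, 297 and 65.0 at 0, 3 and 36 h. Fosl2, an AP-1 subunit gene, had 3 peaks, all in 16 lists, and 0.81 and 2.17 at 0 and 36 h.

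Few genes of the cell cycle lists were neighbours, at shares below or near that of all genes. Of 32 DNA replication and G1/S genes, 3 (9.38%) neighboured a shared distal peak, and of 21 G2/M genes 3 (14.3%), beside 17.2% of all measured genes. Ccnd1, for cyclin D1, had 2 peaks 99953 and 101192 bp away, with a top Egr1 score of 1540, and Pol II of 3.28, 0.91 and 3.11 at 0, 3 and 36 h. Cdc2a, for the mitotic kinase, had 4 peaks, 3 in all 16 lists, and Pol II of 0.00, 1.26 and 0.85 at 0, 36 and 48 h. Mki67, a proliferation marker, had 2 peaks and did not pass the filter on low values. Neither share was tested against that of all genes.

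The share of neighbours in the metabolic lists was 47.1% to 65.0%, beside 17.2% of all measured genes. Of all genes that passed the filter on low values, 1177 of 4761 were neighbours. Distal peaks without a C/EBP region neighboured from 0 of 18 fatty acid genes to 10 of 20 drug metabolism genes. Of all genes tested 16.5% were higher and 11.1% lower at 36 h, which is to be read beside the small counts below. For drug metabolism 13 of 20 were neighbours, with 3 of 13 tested higher and 3 lower. Cyp3a11 had 5 peaks, and its Pol II at 24, 36 and 48 h was 2.69, 18.7 and 1.86, so that 1 library stood apart. Por, the electron donor of the cytochromes P450, had 3 peaks with a top Egr1 score of 1185. For bile acids and cholesterol it was 13 of 21, with 3 of 13 higher and 2 lower, and Insig1, a brake on sterol synthesis, had 14.6, 1.66 and 15.4 at 0, 3 and 36 h. For glucose and glycogen it was 9 of 16, with 0 of 7 higher and 3 lower. Irs2, an insulin receptor substrate gene, had 4 peaks and values of 16.4, 66.7 and 6.55 at those times.

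For urea cycle and amino acids 8 of 17 genes were neighbours, with 4 of 8 tested higher at 36 h, 0 lower and a median of 0.93. Cps1, the entry enzyme of the urea cycle, had 5 peaks and Pol II of 2.07, 1.34, 10.2, 3.35, 20.3, 10.5, 8.91 and 11.5. Mat1a, which makes S-adenosylmethionine, had 3 peaks and 8.00 at 0 h, with 19.5 to 43.8 in every later library. For fatty acids it was 9 of 18, with 2 of 8 higher and 2 lower. Fabp1, for a fatty acid carrier, had 5 peaks and Pol II of 68.8, 5.52 and 22.7 at 0, 3 and 36 h. For other plasma proteins it was 13 of 24, with 1 of 12 higher and 1 lower.

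A small part of the shared distal peaks had C/EBP regions at 36 h and not at 0 h, or the reverse. These groups were formed after the data were seen. Both 36 h lists and neither 0 h list met 89 peaks. Of their 30 neighbours tested, 8 (26.7%) were higher at 36 h by at least 1 and 0 were lower, with a median of 0.48. Both 0 h lists and neither 36 h list met 323 peaks. Of their 122 neighbours tested, 7 (5.74%) were higher and 16 (13.1%) lower, with a median near that of no change. For all genes tested it was 16.5% and 11.1%, and for the 655 tested neighbours of peaks in all 16 lists 16.8% and 11.5%.

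The 8 higher genes included Hpx, for the haem-binding plasma protein hemopexin, with Pol II of 6.86, 220, 103, 29.4, 36.9, 36.7, 80.3 and 40.5 from 0 to 168 h and 0 h below all others. The others were Hist1h2ai, Myadm, the growth control gene Myc (1.5 units per bp at 0 h, 3.93 at 36 h), Tsku, Raph1, D830046C22Rik and AC139037.2. The 16 lower genes included 3 cytochrome P450 genes. Pol II at 0, 36 and 48 h was 47.4, 18.4 and 35.0 over Cyp2e1, whose enzyme oxidizes ethanol. The same times gave 9.96, 3.54 and 1.94 for Cyp1a2, and 19.3, 8.76 and 5.13 for Cyp2d9, which has close copies. For the antiproliferative gene Btg1 they gave 5.36, 0.79 and 2.05.

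**Figure D5:**
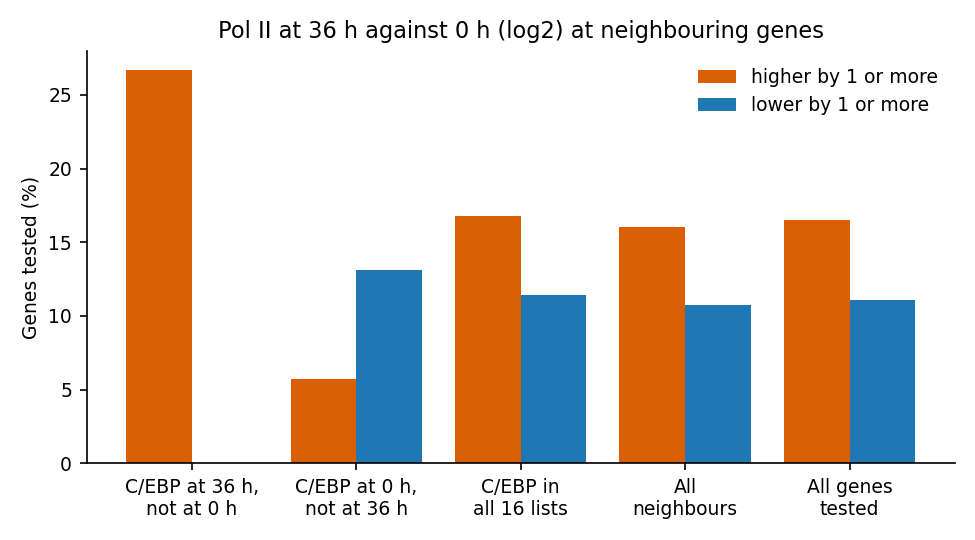
Share of tested genes (%) with Pol II at 36 h higher or lower than at 0 h by at least 1 on the log2 scale, by the C/EBP lists met by a neighbouring shared distal peak, bars starting at 0. The group with C/EBP regions at 36 h and not at 0 h holds 30 genes, of which 26.7% are higher and 0 lower; the converse group holds 122, of which 5.74% are higher.

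The shares moved with the definition. The 0 h lists are longer than those of 36 h, and with all lists at 20061 regions the groups held 127 and 297 peaks. Of their tested neighbours, 11 of 45 (24.4%) and 10 of 97 (10.3%) were higher at 36 h, and 4.44% and 16.5% lower. With the C/EBPalpha lists alone 22 of 100 neighbours (22.0%) of peaks met at 36 h and not at 0 h were higher, against 27 of 252 (10.7%) of the converse. With C/EBPbeta alone the shares were 18.1% of 127 and 14.6% of 301. For Pol II at 48 h they were 23.3% and 13.1%, against 15.2% of all genes tested, and at 3 h 26.7% and 13.1%, against 18.1%. At 168 h the order turned, to 16.7% and 23.0%, against 17.7%. Within 50 kb, at 36 h, they were 26.1% of 23 and 6.06% of 99. At a pseudocount of 0.05 they were 33.3% and 19.7%, against 30.0% of all genes, and at 2 they were 16.7% and 0%, against 4.14%. No difference between these groups was tested, and with 1 library per time a library and its time cannot be told apart.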

How the data were processed

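ChIP-seq of 25 libraries was used: 8 each of C/EBPalpha, C/EBPbeta and Pol II and 1 of Egr1, each assigned to its antibody and time from the title. The submitters' processing notes list mm9 as the build, and as tools MACS 1.4.1 and Bowtie 0.12.7. The deposited C/EBP lists hold regions of 17 to 26 bp in the median with a score from the authors that is scaled within a list. The deposited Egr1 list holds peaks with the peak caller's score, 50 or more. The deposited Pol II files hold a signed signal for each gene entry. The authors' scaling of it is not given in the sources used. No file gives read counts, so depth is unknown, and intervals cover counting error of peaks only.

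Gene starts were taken from 20933 gene entries of at least 500 bp with a unique name, moved back 500 bp. Starts of all 31804 entries, tried after seeing the data, left 9252 distal peaks, 5586 of them with a C/EBP region. Scores were used only within a list. Pol II was divided by width, rescaled by median of ratios (1472 genes over 0.5 in every library), set to 0 where negative, and taken as log2 after adding 0.5, which understates the change of a low gene. The 4761 genes over 0.5 in 2 libraries or more entered limma 3.58.1 (R 4.3.3) with time ranks as a natural spline (3 degrees of freedom). Its p-values were adjusted by Benjamini-Hochberg. The test was tried on simulated data with the same spread for every gene, and that trial is not used as support. The spread in the test is that of libraries around a curve, not of replicates. Other steps used Python 3.11.15 with pandas 2.3.3 and scipy 1.17.1. Also tried were other overlap, distance and score limits, equal list lengths, pseudocounts, scaling, filters and leaving out times. Library batches are not given, so a batch and a time cannot be told apart.

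Of the neighbours, 2848 names were current symbols and 426 older ones in RefSeq (GRCm38.p6). ChIP carries no strand, so overlapping genes cannot be separated. The peaks, lists and rules were chosen with earlier results of these data known. Named are the 10 shared distal peaks of highest score, overall and in all 16 lists, up to 10 genes with 4 or more peaks, the 10 neighbours with most Pol II at 36 h, the 10 highest and 10 lowest at 36 h against 0 h that changed by 1 or more the same way at 48 h, and up to 4 genes per list with the most lists met and then the highest score. Other genes were named after their values were seen. A peak that this rule names is not reported here.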

Additional observations from a re-analysis of the deposited data

How the results depend on the processing

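The number of shared distal peaks was 2962 with Egr1 scores of 100 or more and stayed within 1.5 times of 5656 under the other 10 alternatives. The share of 59.9% was 46.6% with C/EBP centres within 100 bp, 61.1% with scores of 100 or more, 56.2% with at least 2 lists, 58.6% without the C/EBPbeta 0 h list, 54.5% at equal list length, 61.4% with peaks up to 2000 bp wide and 62.9% without chromosomes X and Y, the last chosen after seeing the data. C/EBPbeta minus C/EBPalpha was -1.39 points, -1.98 to -0.0892 leaving out each time, and 0.823 with full lists, where the lists differ in length. No neighbour passed the limma trend under any alternative, and leaving out each library gave 0 calls among neighbours. The smallest adjusted p of a neighbour by limma was lowest without the 0 h library, at 0.0796. At an unadjusted limma p under 0.05 there were then 269 of 1177 neighbours and 927 of 4761 genes, a larger share of neighbours. Without the 168 h library they numbered 85 and 317, also a larger share, and without any other library a smaller one. Neighbours higher and lower at 36 h numbered 346 and 203 with a pseudocount of 0.05, 55 and 47 with 2, and 189 and 126 as reported, since the pseudocount sets the size of changes of low genes. The median change was 0.00 with no filter on low values, which adds genes at or below 0 in both libraries. No fit with a replicate block was possible, since each antibody and time has 1 library and the labels give no replicate numbers. The C/EBP difference pairs the libraries by time.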

Other observations

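The groups below are to be read beside all measured genes, of which 17.2% were neighbours, and all tested genes, of which 16.5% were higher and 11.1% lower at 36 h. Of 29 measured genes of growth factor, insulin and cytokine signalling, 18 (62.1%) were neighbours, with 43 peaks, and 3 of 10 tested were higher at 36 h by at least 1 and 2 lower. Stat3, which carries the signal of interleukin 6, had 2 peaks, the nearer 1077 bp from its start, and Pol II of 0.30, 1.94, 1.81, 1.31, 1.46, 0.89, 1.88 and 1.73 units per bp from 0 to 168 h, with every later library above 0 h. Il6ra, the receptor subunit for interleukin 6, had 3 peaks and 3.17 at 0 h and 1.75 at 36 h. Egfr, the EGF receptor gene, had 3 peaks and Pol II of 1.4, 11.6 and 8.52 at 0, 8 and 36 h. Egfr was named after its values were seen.

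Of 13 measured genes of the circadian clock, 9 (69.2%) were neighbours, and 8 of those had a peak in all 16 lists. Nr1d1, a repressor of the clock, had 1 peak and Pol II of 32.5, 5.11, 12.5, 0.07, 13.5, 1.28, 16.8 and 18.7 units per bp from 0 to 168 h. It was above 10 at 0, 8, 24, 48 and 168 h and below 6 at 3, 16 and 36 h. Per2, a core clock gene, had 2 peaks and lay between 1.03 and 4.52, and Cry2 had 2 peaks, both in all 16 lists, and lay between 0.92 and 2.17. Nr1d1 and Per2 were named after their values were seen.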
